A study of Mus musculus with 4 samples.

Results

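FOXA2 is a forkhead transcription factor that, in the mouse uterus, marks the glandular epithelium. Of the 814 genomic intervals listed as bound by FOXA2 in the uterus at postnatal day 12 (PD12), 227 overlapped no interval of the adult FOXA2 list by even 1 bp, and these PD12-only intervals are described here. They were chosen by the measured positions of both FOXA2 lists, so those positions support nothing further about them. They are 227 of the 11187 FOXA2 intervals of both lists. The other 587 PD12 intervals, called shared, overlapped an adult interval, and 9787 of the 10373 adult intervals overlapped no PD12 interval and are called adult-only. The names describe the lists: an interval absent from the adult list was not thereby shown to be unbound in the adult.

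Uterine glands grow out of the luminal epithelium after birth in the mouse, and FOXA2 appears in the nascent glands and stays in the adult ones. The glands of the adult secrete factors needed for implantation, among them the cytokine LIF. Forkhead factors of the FOXA family bind DNA in closed chromatin and often act at enhancers far from gene starts, so a list of FOXA2 intervals is mostly a list of candidate regulatory regions. The polymerase that makes messenger RNA carries a phosphate on serine 2 of its tail repeat in the form that travels along gene bodies during elongation. Long intervals of it therefore mark stretches in active transcription.

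Whole mouse uterus was used for chromatin immunoprecipitation with sequencing at 2 stages, PD12 and the adult on days 2.5 and 3.5 of pseudopregnancy, in which the uterus is hormonally prepared although no embryo is present. At each stage 1 library was made with a goat antibody to FOXA2 and 1 with a rabbit antibody to the serine 2 form of polymerase, named POL2 in the labels. No strain or genotype is given in the sources used here, and neither is the way in which both adult days entered 1 library. With 1 library in each of the 4 groups no difference has a replicate check, and no p-value is given. The question of the study was which regions FOXA2 occupies while the uterus develops and once it is mature. Because whole uterus was used, a smaller share of gland cells and weaker binding in each cell cannot be told apart. For the same reason FOXA2 and POL2 at 1 place need not be in the same cells.

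The files give positions alone, without heights, scores or reads, so depth is unknown. Each share below carries an exact (Clopper-Pearson) 95% binomial interval, which covers counting error only. Intervals of 1 list are not replicates. The genome build is not named in the sources used here. Of all intervals in the 4 lists, 260 ended beyond the last gene of the GRCm38 gene table at hand, 2 of them PD12-only. Positions are therefore given as deposited, and no gene, exon, intron or sequence is assigned to them.

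Overlap of the lists chose the intervals, so the values at the border of the rule are a description. PD12-only intervals made up 27.9% of the PD12 list. Of the 587 shared intervals, 562 (95.7%, 93.8 to 97.2) lay wholly inside adult intervals, which are wider (median 685 bp, against 318.5 bp for the PD12 list). Only 2 shared intervals had less than 100 bp covered. These stood just outside the rule, at chromosome 6, 88183643 to 88183927, with 35 bp covered, and at chromosome 9, 31088672 to 31089072, with 66 bp covered. Just inside the rule was the interval at chromosome 19, 21153147 to 21153372, which lay 64 bp from an adult interval and 251 bp from another PD12 one. The next was at chromosome 1, 167572214 to 167572689, 81 bp from an adult interval. It lay in an adult POL2 domain of 8.6 kb, with the nearest PD12 domain 2.51 kb away. The intervals at chromosome 11, 26110532 to 26110783, and chromosome 3, 27837195 to 27837419, were 135 and 167 bp from an adult interval, and both lay in no POL2 domain. The fifth, at chromosome 10, 122422623 to 122422898, was 250 bp away, inside POL2 domains at PD12 and in the adult (16.6 and 20 kb wide). Within 1 kb of an adult interval there were 12 PD12-only intervals (5.29%, 2.76 to 9.05). Another adult interval was that near for 2.56% (1.44 to 4.18) of shared and 4.44% (4.04 to 4.87) of adult-only intervals. The number of PD12-only intervals depends on the overlap asked for, and was 688 when 50% of each interval had to be covered by the other and 384 against the 50% widest adult intervals.

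The following distances also use the lists that chose the intervals and are given as a description. The median distance of PD12-only intervals to the nearest adult FOXA2 interval was 52.1 kb (interquartile range 16.3 to 124 kb). For shared intervals, the adult interval next after the overlapping one was at a median of 41.8 kb (12.3 to 109), and for adult-only intervals the next adult one was at 37.1 kb (11.7 to 98.5). Another adult interval lay within 50 kb of 48.9% (42.2 to 55.6) of PD12-only, 54.9% (50.7 to 58.9) of shared and 58.1% (57.1 to 59) of adult-only intervals. PD12-only intervals thus had the highest share of neighbours within 1 kb and the lowest within 50 kb. For shared intervals the overlapping adult interval is left out and takes up much of the nearest sequence, so the 1 kb shares are unlike measures. How far these distances differ beyond chance was not tested.

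**Figure D1:**
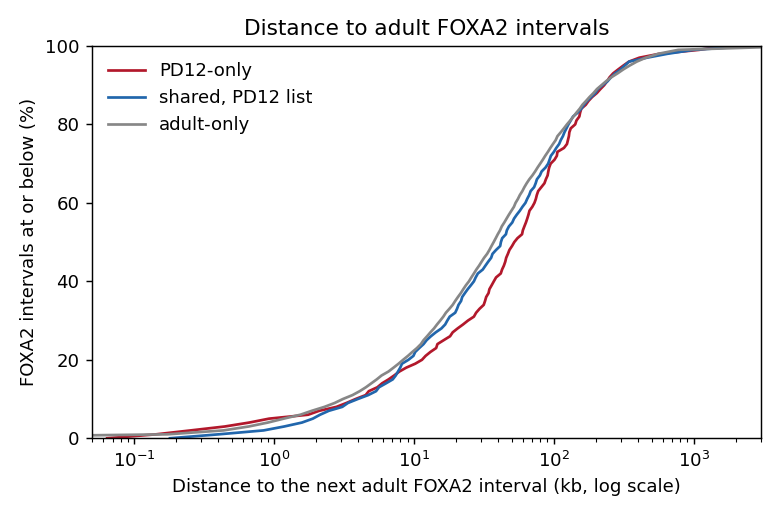
Share of FOXA2 intervals (vertical axis, %) at or below each distance to the next adult FOXA2 interval (horizontal axis, kb, log scale), overlapping adult intervals left out, for PD12-only, shared and adult-only intervals. The 3 curves run close together, with medians of 52.1, 41.8 and 37.1 kb.

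At the far end, the 5 most distant PD12-only intervals lay between 631 and 1656 kb from any adult one. The farthest was a narrow interval of 199 bp on chromosome X, 22295327 to 22295525, 1656 kb from adult FOXA2, 1851 kb from PD12 POL2 and 1700 kb from adult POL2. The interval at chromosome 3, 157196912 to 157197431 (520 bp), was 1370 kb from adult FOXA2, though POL2 domains lay 14 kb away at PD12 and 9.57 kb away in the adult. The one at chromosome 4, 93001633 to 93001951, lay 1221 kb from adult FOXA2 and sat in a PD12 POL2 domain of 4.4 kb, 92999600 to 93003999, that had no adult counterpart. The nearest adult POL2 domain was also 1221 kb away, so this was a stretch in which both antibodies gave an interval at PD12 and neither did in the adult. The remaining intervals of this group, at chromosome 15, 63171885 to 63172287, and chromosome 10, 70569250 to 70569465, were 719 and 631 kb from adult FOXA2 and in no POL2 domain.

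The PD12 list is sparse, and PD12-only intervals were scattered singly. None lay within 10 kb of another, which allows a share of up to 1.61% (exact upper limit), and the median distance to the next PD12-only interval was 2835 kb. Both values count PD12-only intervals alone, with no like value for shared ones. The median distance to any other PD12 FOXA2 interval was 680 kb for PD12-only and 677 kb for shared intervals. Such an interval lay within 10 kb of 2.2% (0.719 to 5.07) of PD12-only and 4.94% (3.33 to 7.02) of shared intervals. Within 50 kb these shares were 10.6% (6.89 to 15.3) and 10.2% (7.89 to 13). Within 50 kb of each other were 12 PD12-only intervals, which formed 6 pairs. The closest pair was on chromosome 12, 101425511 to 101425956 and 101440084 to 101440403, separated by 14.1 kb. A pair on chromosome 11, 87240317 to 87240650 and 87256900 to 87257200, was 16.2 kb apart, and a pair on chromosome 10, 79838975 to 79839222 and 79861146 to 79861860, was 21.9 kb apart. The pair on chromosome 8, 91094308 to 91094645 and 91127878 to 91128179, was 33.2 kb apart inside a single PD12 POL2 domain. The other pairs were on chromosome 2 (45.1 kb apart) and chromosome 1 (46.3 kb apart), and they hold the 3 widest PD12-only intervals.

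The PD12-only intervals had a median width of 328 bp (interquartile range 264.5 to 429), and the shared ones 315 bp (262.5 to 383.5). The widest stood far from the rest, at chromosome 2, 77810425 to 77815562 (5138 bp), in no POL2 domain and with the nearest domains of both stages 20.4 kb away. Its partner at 77762666 to 77765302 (2637 bp) lay in a POL2 domain of 64.8 kb, 77725200 to 77789999, whose ends were identical at both stages. The nearest adult FOXA2 interval was 126 kb from the first and 176 kb from the second. Whether these intervals lie in repeated or multicopy sequence was not tested, and without them the shares in POL2 domains given below were 24% at PD12 and 36% in the adult.

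All other PD12-only intervals were under 1 kb wide. The interval at chromosome 1, 88383745 to 88384728 (984 bp), was inside a POL2 domain at either stage, 2.4 kb at PD12 and 5.6 kb in the adult. Adult FOXA2 was listed 7.43 kb from it. The interval at chromosome 10, 79861146 to 79861860 (715 bp), lay in a PD12 domain of 42.6 kb, of which adult domains covered 25.4 kb (59.6%). POL2 of both stages also covered a 657 bp interval at chromosome 3, 89576777 to 89577433. It likewise covered one of 635 bp at chromosome 5, 138635214 to 138635848, and one of 608 bp at chromosome 9, 115219711 to 115220318. The one at chromosome 1, 36996354 to 36996975 (622 bp), had adult POL2 alone. No POL2 domain covered the 629 bp interval at chromosome 10, 79131736 to 79132364, or the 616 bp one at chromosome 11, 59859739 to 59860354. Of the 10 widest, 6 thus lay in POL2 of both stages, 1 in adult POL2 alone and 3 in none. Wide PD12 intervals often lay in POL2. Among all PD12 intervals of 420 to 5138 bp, 43.8% lay in PD12 POL2 and 70.4% in adult POL2. Among the PD12-only ones of that width, 36.7% and 63.3% did.

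The POL2 libraries were not used to choose the intervals, so they give a separate readout. POL2 was listed at 90 of the 227 PD12-only intervals at one stage or the other (39.6%, 33.2 to 46.3), and 137 (60.4%, 53.7 to 66.8) lay in no POL2 domain. At PD12, 55 (24.2%, 18.8 to 30.3) lay in a domain, against 20.3% of all PD12 FOXA2 intervals. In the adult, 82 (36.1%, 29.9 to 42.7) did, against 29.9% of all PD12 FOXA2 intervals. Shared intervals had shares of 18.7% (15.7 to 22.1) at PD12 and 27.4% (23.9 to 31.2) in the adult. The PD12-only share was higher by 5.49 percentage points at PD12 (95% Newcombe interval -0.628 to 12.2) and by 8.7 points in the adult (1.65 to 16). The adult difference was 4.3 points (-1.86 to 11) when the adult list was cut to its widest domains, as many as at PD12. It was 6.84 points (-0.274 to 14.3) when adult FOXA2 within 1 kb counted as shared, and 0.752 points (-6.45 to 8.54) when adult FOXA2 within 10 kb did. Adult-only intervals, although wider and so more apt to touch a domain, lay in PD12 domains at 11% (10.4 to 11.6) and in adult domains at 18.9% (18.1 to 19.7).

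POL2 at PD12 alone was infrequent at PD12-only intervals, near its share of the whole PD12 list. Of the 55 PD12-only intervals in PD12 POL2, 47 (85.5%, 73.3 to 93.5) were in adult POL2 as well, against 86.7% (80.5 to 91.5) of all PD12 intervals in PD12 POL2. Among shared intervals this was 96 of 110 (87.3%, 79.6 to 92.9), a difference of -1.82 points (-14.5 to 8.44). POL2 of both stages covered 20.7% of PD12-only intervals, against 17.6% of all PD12 intervals. Adult POL2 alone covered 35 (15.4%, 11 to 20.8), against 12.3%. PD12 POL2 alone covered 8 (3.52%, 1.53 to 6.83), against 2.70%. The share in no domain was 60.4%, against 67.4%. The adult POL2 list is longer (14818 domains over 95.2 Mb, against 9972 over 70.4 Mb at PD12), and adult POL2 alone exceeded PD12 POL2 alone in all 3 classes of FOXA2 interval.

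**Figure D2:**
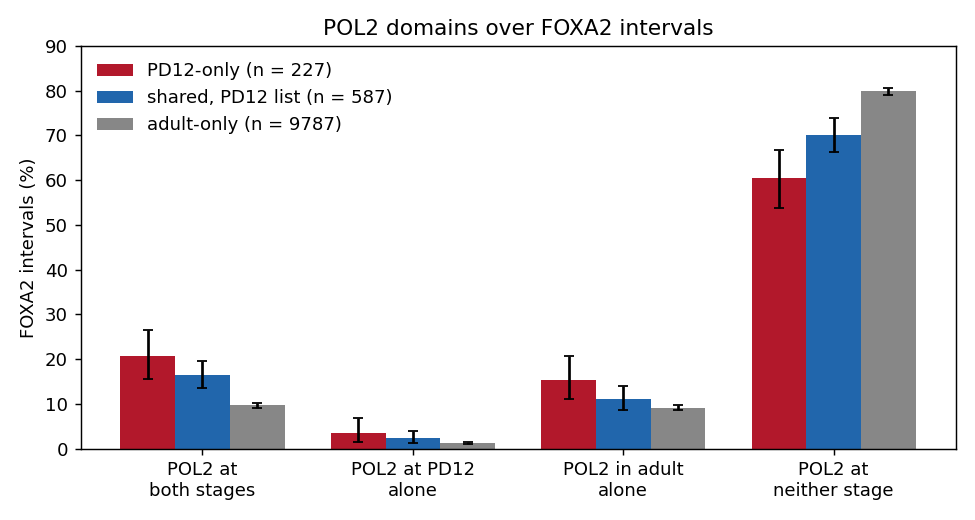
Share of FOXA2 intervals (vertical axis, %) in POL2 domains of both stages, of PD12 alone, of the adult alone and of neither stage. Bars are PD12-only, shared and adult-only intervals and lines are exact 95% binomial intervals; PD12-only intervals are lowest in the last category, at 60.4% against 70.2% and 79.9%.

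The 8 PD12-only intervals in PD12 POL2 without adult POL2 included 2 in the widest PD12 domain that held any, at chromosome 8, 91043600 to 91129199 (85.6 kb). The adult list covered 7.4 kb of that domain (8.64%), and no adult FOXA2 interval lay in it. In the 50 kb about the centre of the first of these, 91094308 to 91094645, POL2 covered 50 kb at PD12 and 2.876 kb in the adult, the largest PD12 excess of all 227. The interval at chromosome 7, 20334808 to 20335235, lay in a PD12 domain of 19.6 kb with 2 kb covered in the adult. That at chromosome 7, 151821965 to 151822257, lay in one of 8.4 kb with 0.6 kb covered in the adult. The domain at chromosome 17, 26551200 to 26565799 (14.6 kb), which held the FOXA2 interval 26551902 to 26552159, had no adult coverage, as was so for the chromosome 4 domain of 4.4 kb described above. For the remaining intervals, at chromosome 3, 37538597 to 37539044, and chromosome 4, 137860502 to 137860940, adult POL2 began 2.36 and 2.86 kb away and covered 65.6% and 60.8% of the PD12 domain. Adult POL2 was also near the second chromosome 7 interval, at 1.54 kb, and the second chromosome 8 interval, at 3.88 kb, although it covered little of those domains.

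The PD12 domains that held a PD12-only interval were mostly still listed in the adult. There were 54 of them, with a median width of 10.7 kb, against 5.4 kb for all PD12 domains and 7.6 kb for the 109 that held a shared interval. The adult list covered a median of 85.4% of their length (interquartile range 59.9 to 98.2), against 82.6% for all PD12 domains and 89.5% for those with a shared interval. It covered less than 50% of 11 of the 54 (20.4%) and nothing of 2 (3.7%), against 28.4% and 20.1% of all PD12 domains, which are narrower. An adult FOXA2 interval lay elsewhere in 7 of the 54 (13%), and 10.6% of all PD12 domains held one. Besides the domains on chromosomes 7, 8, 17 and 4 already given, coverage under 50% was found at chromosome 5, 74590600 to 74597799 (19.4%), chromosome 8, 124176000 to 124185199 (21.7%), and chromosome 11, 5658600 to 5662799 (28.6%). It was also found at chromosome 5, 76567400 to 76573799 (37.5%), chromosome 6, 38109800 to 38119399 (39.6%), and chromosome 3, 119484600 to 119488799 (47.6%). Of the other wide domains, that at chromosome 4, 154510200 to 154544199 (34 kb), had 92.4% of its length in adult domains and that at chromosome 9, 72509200 to 72544599 (35.4 kb), had 99.4%. The chromosome 10 domain of 42.6 kb had 59.6%.

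The opposite state, adult POL2 alone, was more frequent, as over all PD12 intervals (12.3%, against 2.70% in PD12 POL2 alone). Against as many of the widest adult domains as at PD12, 24.2% of PD12-only intervals lay in adult POL2, as in PD12 POL2. Of the 35 PD12-only intervals in adult POL2 alone, 31 (88.6%, 73.3 to 96.8) lay in a domain that overlapped no PD12 domain, as did 53 of 65 shared ones (81.5%, 70 to 90.1). That adult FOXA2 was not listed at these PD12-only intervals follows from the rule that chose them. Some of these adult domains did hold an adult FOXA2 interval elsewhere, as at chromosome 10, 66383000 to 66385599, and chromosome 18, 56730400 to 56733999. The widest of the 35, named after their values were seen, were the chromosome 1 interval of 622 bp in a domain of 3.8 kb and chromosome 5, 35002610 to 35003174 (565 bp), in one of 2.2 kb. The next were chromosome 7, 97624307 to 97624865 (559 bp), in a domain of 2.4 kb, and chromosome 12, 21379325 to 21379863 (539 bp), in one of 3.6 kb. After them came chromosome 19, 57527178 to 57527696 (519 bp), which met a domain of only 0.2 kb. All of these named domains were narrower than the median adult domain (4.8 kb). Over all 82 PD12-only intervals in adult POL2 the domains had a median width of 5.2 kb, against 6.8 kb for those with a shared interval. These 82 include the intervals in POL2 of both stages, so 5.2 kb does not describe adult POL2 alone. Within its domain, the centre lay within 1 kb of an end for 35 of 82 PD12-only intervals in the adult (42.7%, 31.8 to 54.1) and 67 of 161 shared ones (41.6%, 33.9 to 49.6). At PD12 these shares were 23.6% (13.2 to 37) and 30.3% (21.8 to 39.8).

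Interval width moved with the presence of POL2. PD12-only intervals in POL2 of both stages had a median width of 371 bp, those in adult POL2 alone 426 bp, those in PD12 POL2 alone 328.5 bp and those in none 294 bp. For shared intervals the medians were 420, 397, 332.5 and 298.5 bp, so width moved with POL2 in both classes. The 814 PD12 intervals were therefore divided into 5 groups of equal size by width, a division made after the data were seen. In the narrowest group, up to 252 bp, 4% (0.488 to 13.7) of PD12-only and 6.19% (2.53 to 12.3) of shared intervals lay in PD12 POL2. From 253 to 300 bp the shares were 24.4% (12.4 to 40.3) and 7.26% (3.37 to 13.3), and from 301 to 339 bp they were 29.4% (15.1 to 47.5) and 12.4% (7.26 to 19.4). From 340 to 419 bp they were close, at 26.2% and 24.4%. In the widest group the order was the other way, at 36.7% (24.6 to 50.1) and 48.0% (38 to 58.2). In adult POL2 the narrowest group had 6% (1.25 to 16.5) of PD12-only and 12.4% (6.94 to 19.9) of shared intervals. From 253 to 300 bp these shares were 29.3% (16.1 to 45.5) and 11.3% (6.31 to 18.2). From 301 to 339 bp they were 32.4% (17.4 to 50.5) and 17.1% (11 to 24.7), and from 340 to 419 bp 42.9% (27.7 to 59) and 29.4% (21.4 to 38.5). In the widest group they were 63.3% (49.9 to 75.4) and 74.5% (64.9 to 82.6).

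The PD12-only share in POL2 was thus the higher one at the middle widths. When shared intervals were weighted to the widths of the PD12-only ones, the difference was 2.49 points at PD12 and 3.66 points in the adult. Whether the difference between width groups exceeds chance was not tested.

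**Figure D3:**
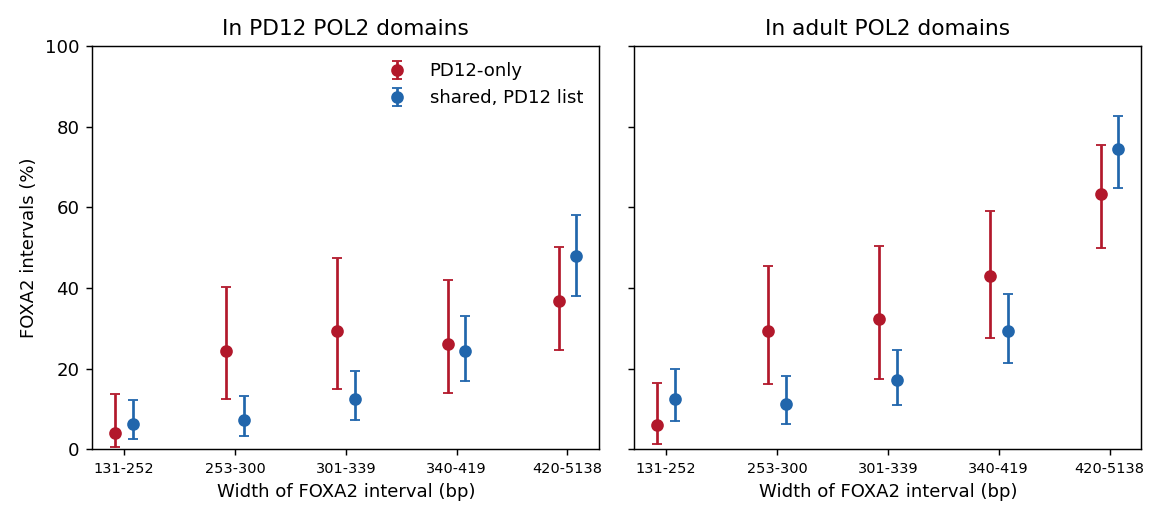
Share of PD12-only and shared intervals (vertical axis, %) in PD12 POL2 domains (left) and adult POL2 domains (right), in 5 groups of interval width (horizontal axis, bp). Points are shares and lines are exact 95% binomial intervals. PD12-only points lie above shared ones from 253 to 419 bp and below them in the narrowest and widest groups.

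The nearness of other adult FOXA2 intervals also moved with POL2. Of the 43 PD12-only intervals with an adult FOXA2 interval within 10 kb, 26 (60.5%, 44.4 to 75) lay in adult POL2 and 16 (37.2%, 23 to 53.3) in PD12 POL2. Of the 184 with none so near, 56 (30.4%, 23.9 to 37.6) lay in adult POL2 and 39 (21.2%, 15.5 to 27.8) in PD12 POL2. Among shared intervals with another adult interval within 10 kb, 29.4% (21.6 to 38.1) lay in adult POL2, and 26.9% (22.9 to 31.2) of the rest did. In PD12 POL2 these shares were 26.2% (18.8 to 34.8) and 16.7% (13.4 to 20.4), so there both classes had a higher share near another adult interval. With no other adult interval within 10 kb, PD12-only and shared intervals had adult POL2 shares of 30.4% and 26.9%. These are unlike measures, because each of those shared intervals still overlaps an adult FOXA2 interval. The split also uses the adult FOXA2 list that chose the PD12-only intervals, so it is a description. That PD12-only and shared intervals depend differently on a near adult interval was not tested.

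On average, POL2 was also listed more widely around PD12-only intervals than around the other classes. In the 50 kb about the centre, PD12 domains covered a mean of 6.49 kb for PD12-only, 4.15 kb for shared and 3.38 kb for adult-only intervals. Adult domains covered means of 7.48, 5.17 and 4.73 kb. The medians were 0 kb for all of these classes at PD12, and 2.4, 0 and 0 kb in the adult. These values are not adjusted for interval width or for a near adult FOXA2 interval. Neither stage had any POL2 there for 93 PD12-only intervals (41.0%, 34.5 to 47.7), against 51.8% (47.7 to 55.9) of shared and 56.7% (55.7 to 57.7) of adult-only ones. Coverage was larger in the adult for 93 of the 227 (41.0%), against 34.8% of all PD12 intervals, and larger at PD12 for 38 (16.7%), against 15.8%. Among intervals named after their values were seen, adult coverage exceeded PD12 coverage most at chromosome 4, 149943915 to 149944262, where it was 40.088 kb against 17.6 kb. The next was chromosome 17, 35975016 to 35975430, at 33.223 against 15.223 kb. Neighbouring intervals can share a domain, so these counts are not all independent.

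Coverage by POL2 was lower away from the centre in all classes, and at most distances it was higher around PD12-only than around shared intervals. At the centre, 24.2% of PD12-only intervals were in PD12 POL2, at 6 to 14 kb on either side a mean of 13%, at 40 to 60 kb 10.4% and at 90 to 100 kb 6.43%. For shared intervals these values were 18.6%, 8.16%, 5.98% and 5.62%. In the adult list PD12-only intervals went from 36.1% at the centre to 14.7%, 11.9% and 8.63%, and shared intervals from 27.4% to 9.79%, 7.37% and 7.34%. Of 100 positions from 2 to 100 kb on both sides, the PD12-only value was above the shared one at 90 in PD12 POL2 and below it at 10. In adult POL2 it was above at 87 and below at 12. It was above at all 24 positions within 24 kb in both lists, and the exceptions lay farther out. Positions along 1 stretch are not independent. Whether the PD12-only intervals lie in stretches richer in genes was not tested.

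**Figure D4:**
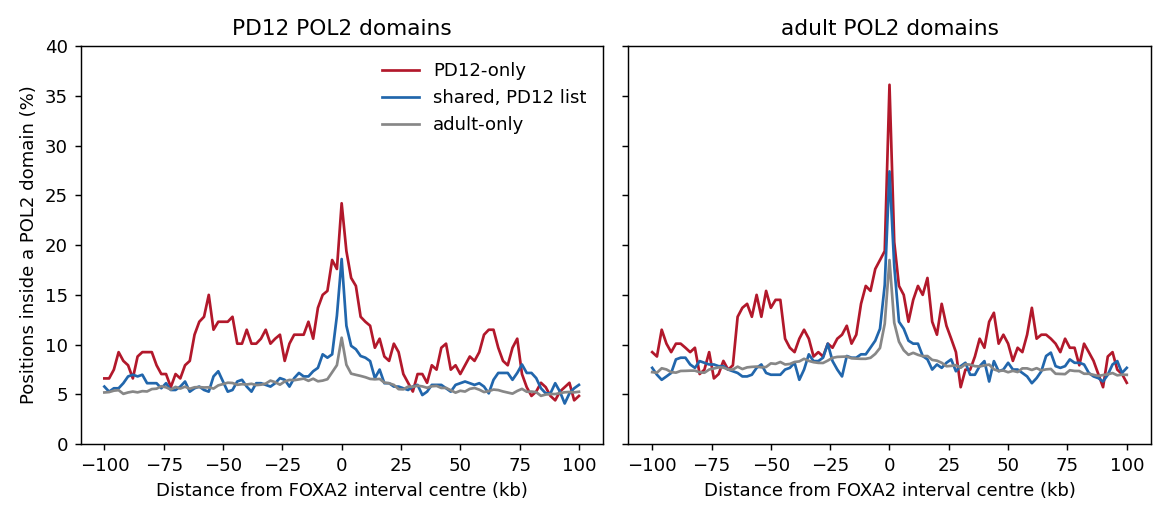
Share of positions inside a POL2 domain (vertical axis, %) by distance from the FOXA2 interval centre (horizontal axis, kb, steps of 2 kb), for PD12 domains (left) and adult domains (right). Lines are PD12-only, shared and adult-only intervals; PD12-only intervals reach 24.2% and 36.1% at the centre and are above the other lines over most of the 60 kb on either side.

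As among shared intervals, the PD12-only intervals without POL2 varied in their distance to a domain. Of these 137, 25 (18.2%, 12.2 to 25.7) had a domain of either stage within 10 kb, against 51 of 412 shared ones (12.4%, 9.36 to 16). A domain of either stage lay within 100 kb of 62% (53.4 to 70.2), against 59.5% (54.5 to 64.2) of shared ones. The other 52 of the 137 (38%, 29.8 to 46.6) had none so near. Only 2 of the 137 (1.46%, 0.177 to 5.17) had a domain within 1 kb, as did 3 of 412 shared ones (0.728%, 0.15 to 2.11). Few of either class were thus placed at the edge of one.

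All 20 chromosomes of the lists held PD12-only intervals. Chromosomes 11, 2 and 10 had the most, with 28, 26 and 20. As a share of the PD12 intervals of the chromosome these were 38.4% (27.2 to 50.5), 37.1% (25.9 to 49.5) and 42.6% (28.3 to 57.8), against 27.9% over all chromosomes. The lowest share was on chromosome 16, with 3 of 26 (11.5%, 2.45 to 30.2). Chromosome 19 had a share near that of chromosome 2, with 6 of 16 (37.5%, 15.2 to 64.6). Chromosomes 2, 10 and 11, put together after their values were seen, had 74 PD12-only intervals of 190 (38.9%, 32 to 46.3). The other 17 chromosomes, with chromosome 19 among them, had 153 of 624 (24.5%, 21.2 to 28.1). The PD12-only intervals of chromosomes 2, 10 and 11 lay in adult POL2 at 32.4% (22 to 44.3) and those elsewhere at 37.9% (30.2 to 46.1). For shared intervals the order was the other way, at 34.5% (25.9 to 43.9) and 25.7% (21.8 to 29.9).

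**Figure D5:**
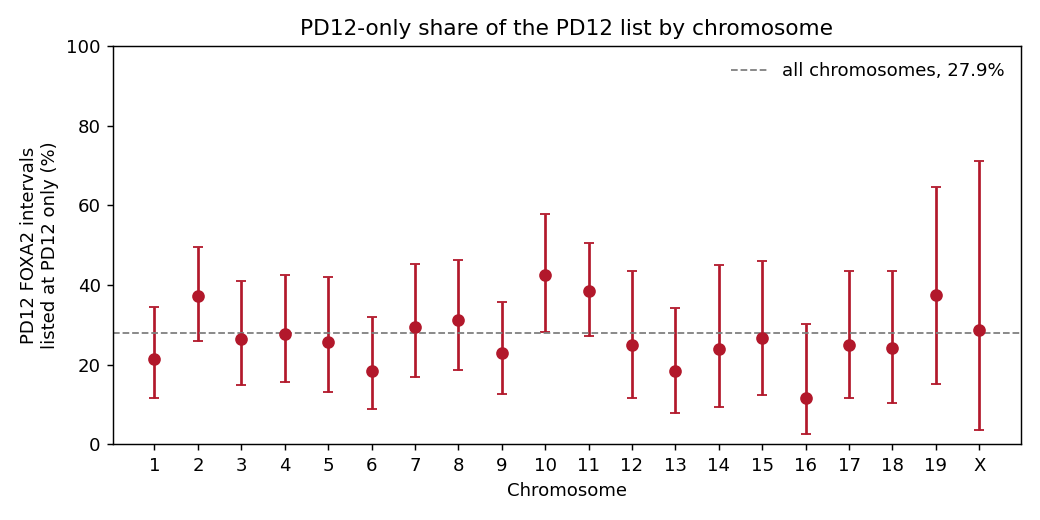
Share of the PD12 FOXA2 intervals of each chromosome that were listed at PD12 only (vertical axis, %), by chromosome (horizontal axis). Points are shares, lines are exact 95% binomial intervals and the dashed line is the share over all chromosomes, 27.9%; chromosome 10 is highest at 42.6% and chromosome 16 lowest at 11.5%.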

How the data were processed

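Each of the 4 libraries (FOXA2 and POL2, at PD12 and in the adult) has 1 deposited list of chromosome, start and end, per the file headers. The submitters' processing notes name BWA, without a version. The sources used here do not state the peak caller, its threshold, any use of input DNA, or the build. Positions were counted as inclusive and intervals were called overlapping when they shared at least 1 bp. Distances run from edge to edge. Shares have exact (Clopper-Pearson) 95% binomial intervals, and differences of 2 shares have Newcombe intervals. The overlap calculation was tested on simulated lists. Python 3.11.15, numpy 2.4.6, pandas 2.3.3, scipy 1.17.1, statsmodels 0.14.6 and matplotlib 3.10.9 were used.

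The members, gene lists and comparisons were chosen with earlier results of these data known. The regions named were the 10 widest PD12-only intervals, those within 10 kb of another, the 5 nearest to and 5 farthest from an adult FOXA2 interval, those in the 5 widest PD12 POL2 domains that held one, and those in PD12 POL2 without adult POL2. Others are said to have been named after their values were seen, and the pairs, the near-threshold regions and the domains with under 50% adult coverage were too. A genome and annotation of the files' build were not used, so the planned motif share, share near gene starts and gene lists were not run.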

Additional observations from a re-analysis of the deposited data

How the results depend on the processing

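Of 42 alternatives over 5 results, 32 left the count within 1.5 times, or the share or difference inside its 95% interval, 8 moved it farther and 2 reversed it. Those on the choice of members, on the differences, on the 2 widest intervals and on list length of domains were chosen after seeing the data. Staying inside the interval is a weak criterion. The PD12 difference of 5.49 points had an interval of -0.628 to 12.2, so 1.2 points counted as unchanged. Leaving out members with adult FOXA2 within 10 kb and counting them as shared give the same shares, yet were counted separately. PD12-only intervals numbered 227. They numbered 688 under the demand that 50% of each interval be covered by the other, with adult intervals at a median of 685 bp and PD12 ones at 318.5 bp, and 384 against the 50% widest adult intervals. In the 50% narrowest PD12-only intervals the share was 16.8% in PD12 and 19.5% in adult POL2, and in as many of the widest adult domains as at PD12 it was 24.2%, with a difference from shared intervals of 4.3 points (-1.86 to 11). With members chosen against the 50% widest adult intervals the shares were 15.9% and 24%, and the differences from shared intervals were reversed, at -8.3 points (PD12) and -11.2 points (adult). This choice moves intervals under narrow adult ones into the PD12-only class. With adult intervals within 10 kb counted as shared, which leaves 184 members, the difference in adult POL2 was 0.752 points (-6.45 to 8.54) and in PD12 POL2 1.2 points. The main adult difference was 8.7 points (1.65 to 16). It was 6.84 points (-0.274 to 14.3) with adult FOXA2 within 1 kb counted as shared. With 50% of each interval covered it was 3.39 points (-5.59 to 11.2), and in the 50% narrowest intervals 7.52 points (-0.0111 to 16.4). All these intervals cover counting error only and cannot show whether a difference would hold in another library.

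No paired analysis was possible because there was 1 library of each kind. The settings for motif share and gene starts were not run. Unknown depth limits what absence from the adult list can show, and so does the unknown share of gland cells at each stage.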
